A study of Homo sapiens with 6 samples.

Results

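ISG15 is a small ubiquitin-like protein that cells attach to other proteins after interferon exposure, and the genes described here encode ISG15 itself together with the enzymes that attach and remove it. The 7 genes, ISG15, UBA7, UBE2L6, HERC5, HERC6, USP18 and USP41, were picked by their symbols from the 57820 genes of the expression table, with earlier results of these data known. Each symbol was found in a single row. RNA was sequenced from M14, an established human melanoma cell line that carried a doxycycline-inducible shRNA against STAG2, a subunit of the cohesin complex that shapes chromosome loops. WT libraries came from these cells grown without doxycycline and KD libraries from the same cells given doxycycline for 5 days, with 3 libraries in each condition, and both conditions were kept in puromycin. A single shRNA was used and every KD library received doxycycline, so that knockdown and drug exposure cannot be told apart here. The samples are described by the study as biologically independent.

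Attachment of ISG15 follows the order of the ubiquitin cascade. UBA7 is the E1 enzyme that activates ISG15, UBE2L6 is the E2 enzyme that receives it, and HERC5 is the main human E3 ligase that transfers it to target proteins, many of them newly made. HERC6 is a close relative of HERC5 and is the corresponding ligase in the mouse. USP18 removes ISG15 from its targets and, apart from its protease activity, binds the interferon receptor and dampens its signalling. USP41 is a copy of part of USP18 on the same chromosome. Transcription of these genes by type I interferon runs through ISGF3, a complex that contains STAT2 and IRF9 and binds a DNA element called the ISRE.

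The promoter sequences are shown first because the ISRE is the element through which interferon is known to act on this pathway. RefSeq promoter windows (table build GRCh38.p14, 250 bases before to 50 bases after each annotated start) were read for ISG15, HERC5, HERC6 and UBE2L6 and were placed on GRCh37 by exact match of the upstream bases. No window was available for UBA7, USP18 or USP41, so these were not searched. In the windows read, both strands were searched for the ISRE core, written as GAAA, any 2 bases, GAAA. In the lines below, capitals mark the matched bases, and HERC5 carries them as TTTC because its matches lie on the strand opposite to the gene.
ISG15, chr1:948724-948799, plus strand: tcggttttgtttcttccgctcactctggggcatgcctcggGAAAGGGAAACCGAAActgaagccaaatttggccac
HERC5, chr4:89378105-89378225, plus strand: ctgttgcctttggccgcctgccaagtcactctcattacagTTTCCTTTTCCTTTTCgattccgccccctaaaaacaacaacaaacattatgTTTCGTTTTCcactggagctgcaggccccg

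The ISG15 stretch ran from 153 to 78 bases before the start at position 948877 and held 2 cores that overlap by 1 GAAA, at 113 to 104 and at 107 to 98 bases before the start. The HERC5 stretch ran from 165 to 45 bases before the start at position 89378270 and held 3 cores, of which 2 overlap (125 to 116 and 119 to 110 bases before the start) and 1 stands apart (74 to 65 bases before the start). Neither the HERC6 window nor the windows of the 2 UBE2L6 starts held these letters. Of all 35116 windows of this length, 1255 (3.57%) held at least 1 core and 91 (0.259%) held 2 or more. A match describes the letters of the window and does not show that a factor binds there.

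The libraries held between 24895998 and 35181733 expected counts, so that 3 counts corresponded to 0.0853 to 0.121 CPM (expected counts scaled to a common library size), a floor that covers counting error only. STAG2, the target of the shRNA, was measured at 66.5, 34.8 and 28.8 CPM in WT and at 16.0, 7.31 and 6.69 CPM in KD. Its fitted log2 fold change was −2.12 (SE 0.427, adjusted p = 0.0342, edgeR), and the call was lost without WT replicate 2 or 3 or KD replicate 2 or 3 (adjusted p up to 0.168). With the replicate number as a block the log2 fold change was −2.14 (SE 0.193, adjusted p = 0.000104, edgeR). All 8 melanocyte markers were detected, and their summed level ranged from 1861 to 6311 CPM in WT and from 1195 to 2606 CPM in KD. S100B was the melanocyte marker called lower (117 to 45.9 CPM, adjusted p = 0.0095, edgeR), and with the replicate block PMEL, MLANA, DCT, SOX10 and TYRP1 were called lower too. WT replicate 1 stood apart, with the highest melanocyte sum and 5.07% of its counts from mitochondrial genes against 2.12% to 2.94% in the other libraries. Replicate 1 was the highest library in both conditions for MITF, PMEL, MLANA, TYR, DCT and TYRP1, but not for SOX10 or S100B. PMEL was at 3370, 662 and 684 CPM in WT and at 1254, 358 and 364 CPM in KD. The 4 immune markers summed to 0.932 to 1.83 CPM in WT and 0 to 1.53 CPM in KD, with CD3E at 0 in every library. The 3 plasmacytoid dendritic cell markers summed to 0 to 0.130 CPM in WT and 0.389 to 0.846 CPM in KD, with CLEC4C and LILRA4 at 0 throughout. Fibroblast markers summed to 2.77 to 88.3 CPM in WT and 2.49 to 20.7 CPM in KD, endothelial markers to 1.75 to 3.69 and 2.09 to 5.45 CPM, and keratinocyte markers to 0.411 to 4.23 and 0.372 to 0.857 CPM, and their part in the results was not tested.

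RNA for the whole conjugation cascade was higher after STAG2 knockdown. Of the 7 genes, 6 passed the test as higher in KD, 0 passed as lower, and USP41 missed the threshold. Among the called genes the modifier and its protease showed the largest fitted rises, 52.3-fold for ISG15 and 21.1-fold for USP18. HERC6 came next among them with a log2 fold change of 3.00, and UBE2L6 rose 5.42-fold, HERC5 5.39-fold and UBA7 2.64-fold. All 7 genes passed the filter on low counts and were among the 15605 genes tested, of which 273 (1.75%) were called higher and 404 (2.59%) were called in either direction at an adjusted p under 0.05. In the 6 called genes every KD library exceeded every WT library, which held for 11.8% of the tested genes. USP41 showed the same order, but it passed the filter on low counts only through its KD libraries and is not counted as support. With the replicate number as a block the same 6 genes were called, against 5.1% of tested genes called higher in that fit.

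**Figure D1:**
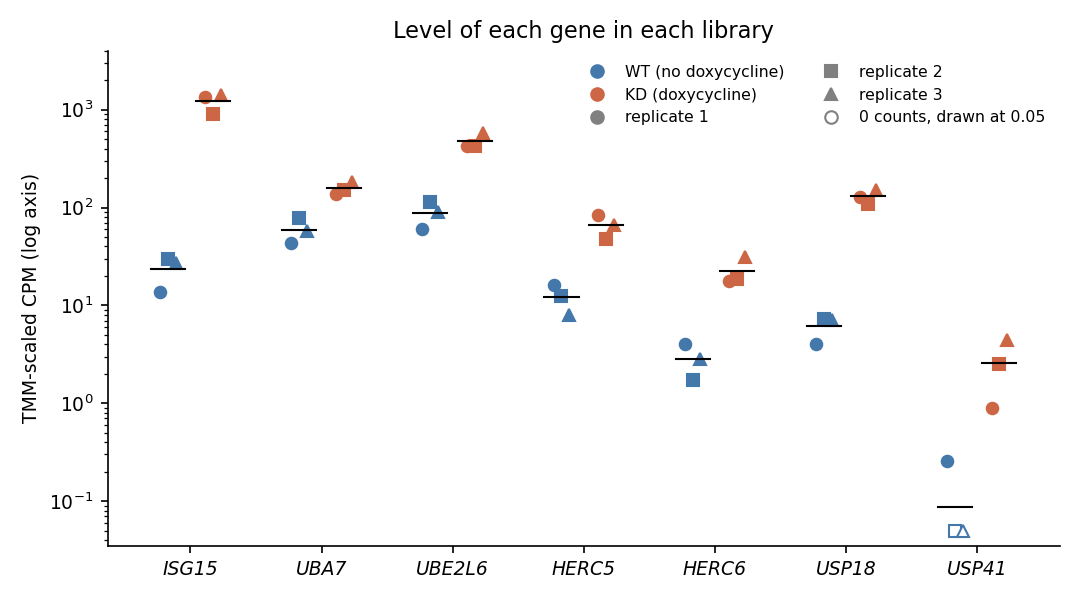
TMM-scaled CPM (log axis) of each gene in the 3 WT and 3 KD libraries, one point per library, with a line at each condition's mean. ISG15 moved from a WT mean of 23.4 CPM to a KD mean of 1224 CPM, and in each gene all KD points lie above all WT points.

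The modifier came first. ISG15 (ENSG00000187608), whose canonical transcript has 2 exons, spans chr1:936518-949920 on the plus strand of GRCh37, a span that includes transcripts starting well upstream of the promoter shown above. It was measured at 13.6, 29.5 and 27.1 CPM in WT replicates 1, 2 and 3 and at 1362, 901 and 1410 CPM in KD. The groups were far apart, and the lowest KD library was replicate 2. The mean went from 23.4 ± 8.54 to 1224 ± 281 CPM (SD, n = 3 each), a log2 fold change of 5.71 (SE 0.376, 95% interval 4.87 to 6.55, adjusted p = 5.21e-05, edgeR). This was the 47th largest rise among the 15605 genes. ISG15 RNA made up 0.00147%, 0.00289% and 0.00255% of the counts of the WT libraries and 0.145%, 0.0854% and 0.139% of those of the KD libraries. In bulk RNA a change in the number of cells making a transcript and a change in the amount per cell cannot be told apart.

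The activating enzyme changed least. UBA7 (ENSG00000182179, chr3:49842642-49851386, minus strand, 24 exons), the only E1 known for ISG15, was measured at 43.2, 77.5 and 57.5 CPM in WT and at 137, 152 and 181 CPM in KD. The conditions did not overlap, with replicate 2 the highest WT library and replicate 1 the lowest KD library. The mean went from 59.4 ± 17.2 to 157 ± 22.4 CPM (SD, n = 3 each), a log2 fold change of 1.40 (SE 0.245, 95% interval 0.853 to 1.95, adjusted p = 0.0173, edgeR). Its call was lost without WT replicate 3 (adjusted p = 0.0962), without KD replicate 2 (adjusted p = 0.0784) or without KD replicate 3 (adjusted p = 0.110), while the log2 fold change stayed between 1.21 and 1.64 over the 6 fits that each left out 1 library.

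The conjugating enzyme changed more. UBE2L6 (ENSG00000156587, chr11:57319129-57335757, minus strand, 4 exons), also known as UBCH8, passes activated ISG15 to the ligase. It was measured at 60.7, 113 and 89.9 CPM in WT and at 427, 427 and 574 CPM in KD. KD replicates 1 and 2 were nearly equal and KD replicate 3 was the highest, all well above WT. The mean went from 87.7 ± 26.0 to 476 ± 85.3 CPM (SD, n = 3 each), a log2 fold change of 2.44 (SE 0.269, 95% interval 1.84 to 3.04, adjusted p = 0.00132, edgeR).

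The ligases lie side by side on chromosome 4. HERC6 (ENSG00000138642, chr4:89299891-89364249) and HERC5 (ENSG00000138646, chr4:89378270-89427314) are both on the plus strand with 23 exons each, and 14021 bases separate them. HERC5 was measured at 16.1, 12.5 and 7.97 CPM in WT and at 83.5, 47.9 and 65.8 CPM in KD. KD replicate 2 was its lowest KD library, as for ISG15, yet it stood above every WT library. The mean went from 12.2 ± 4.09 to 65.7 ± 17.8 CPM (SD, n = 3 each), a log2 fold change of 2.43 (SE 0.317, 95% interval 1.72 to 3.14, adjusted p = 0.00354, edgeR). HERC6 was measured at 3.99, 1.74 and 2.80 CPM in WT and at 17.9, 18.7 and 31.5 CPM in KD. Here KD replicate 3 was the highest and the other KD libraries were close to each other. The mean went from 2.84 ± 1.12 to 22.7 ± 7.64 CPM (SD, n = 3 each), a log2 fold change of 3.00 (SE 0.406, 95% interval 2.09 to 3.91, adjusted p = 0.0046, edgeR).

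The removing enzyme was next to the modifier in the size of its called change. USP18 (ENSG00000184979, chr22:18632885-18660164, plus strand, 11 exons) was measured at 4.06, 7.22 and 7.14 CPM in WT and at 129, 109 and 151 CPM in KD. WT replicate 1 was the lowest WT library and KD replicate 2 the lowest KD library, the same order at the low end as for ISG15. The mean went from 6.14 ± 1.80 to 130 ± 21.3 CPM (SD, n = 3 each), a log2 fold change of 4.40 (SE 0.289, 95% interval 3.75 to 5.05, adjusted p = 5.21e-05, edgeR). It was the 83rd largest rise among the tested genes.

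USP41 (ENSG00000161133, chr22:20717911-20731541, minus strand, 8 exons) is annotated as a transcribed unprocessed pseudogene and stood near the detection limit in WT. It was measured at 0.258, 0 and 0 CPM in WT and at 0.901, 2.50 and 4.41 CPM in KD, from 6.93, 0 and 0 expected counts in WT and 29.0, 73.8 and 144 in KD. Relative to their mean, the KD libraries differed more from each other than for any other of the 7 genes (coefficient of variation 67.5%). Its log2 fold change was 4.88 (SE 1.57, 95% interval 1.36 to 8.40, adjusted p = 0.165, edgeR), and DESeq2 gave an adjusted p of 0.0089. Of the 871 words of 50 bases in its canonical transcript, 478 (54.9%) also occur in that of USP18, which makes the split of reads between the pair uncertain. In the other direction, the 478 words were 26.4% of those of USP18, and no other pair among the 7 genes shared a word of this length. Estimated counts for USP41 made up 5.97%, 0% and 0% of the pair's sum in WT and 0.694%, 2.25% and 2.83% in KD. When the pair was added together the log2 fold change was 4.41 (SE 0.278, adjusted p = 4.91e-05, edgeR), close to that of USP18 alone.

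**Figure D2:**
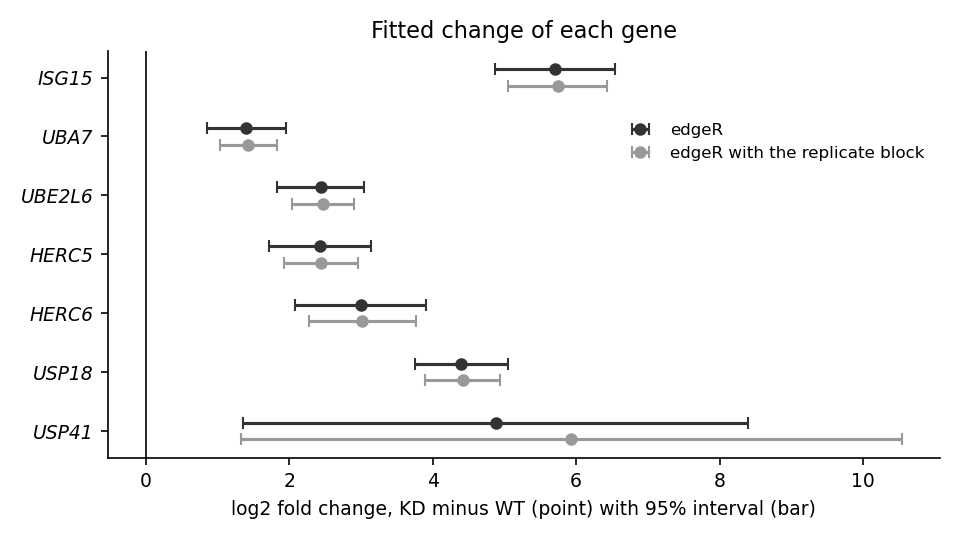
Fitted log2 fold change, KD minus WT, of each gene (points) with its 95% interval (bars), from edgeR without and with the replicate number as a block. Intervals for ISG15 and USP18 lie above those of UBA7, UBE2L6 and HERC5. The USP41 interval reaches from 1.36 to 8.40 without the block and from 1.33 to 10.5 with it.

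Since WT replicate 1 stood apart, the fold changes were also computed without it. KD replicate 1, which shared its high levels of several melanocyte markers, was kept, so this fit does not remove an effect of replicate number. ISG15 then rose by 5.43 on the log2 scale, UBA7 by 1.21, UBE2L6 by 2.23, HERC5 by 2.67, HERC6 by 3.32 and USP18 by 4.17, all with adjusted p of 0.0206 or less (edgeR). Compared with all 6 libraries, the modifier, the E1, the E2 and USP18 rose slightly less and both ligases slightly more. In WT replicate 1, HERC5 and HERC6 were at their highest WT level while ISG15, UBA7, UBE2L6 and USP18 were at their lowest. USP41 was at 0 in both remaining WT libraries, and its log2 fold change of 9.36 without that library (adjusted p = 0.0342) depends on the prior count that edgeR adds.

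Differences between libraries with the same replicate number gave the same direction each time. For ISG15 the log2 difference KD minus WT was 6.59, 4.91 and 5.68 in replicates 1, 2 and 3, and for USP18 it was 4.83, 3.82 and 4.31. UBE2L6 (2.80, 1.92 and 2.67), UBA7 (1.66, 0.971 and 1.65) and HERC5 (2.34, 1.90 and 2.97) also differed least in replicate 2. HERC6 (2.04, 3.10 and 3.28) and USP41 (0.886, 2.58 and 3.30) differed least in replicate 1.

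Divided by the length of the canonical transcript, the order of the genes changed between conditions. In WT the highest level per kilobase was that of UBE2L6 (72.0 ± 21.4 CPM per kb), followed by ISG15 (36.7 ± 13.4), UBA7 (18.0 ± 5.22), HERC5 (3.47 ± 1.16), USP18 (3.31 ± 0.968), HERC6 (0.753 ± 0.298) and USP41 (0.0936 ± 0.162). The WT libraries of ISG15 and UBA7 overlapped on this scale, as did those of HERC5 and USP18. In KD the order was ISG15 (1922 ± 442 CPM per kb), UBE2L6 (390 ± 70.0), USP18 (69.8 ± 11.5), UBA7 (47.5 ± 6.77), HERC5 (18.7 ± 5.08), HERC6 (6.01 ± 2.02) and USP41 (2.83 ± 1.91), with overlap only between HERC6 and USP41. ISG15 was thus below its E2 in WT and above it in KD, and USP18 was below the E1 in WT and above it in KD, in every library. These lengths are those of single annotated transcripts, and other isoforms would scale the levels differently.

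The balance between the modifier and its enzymes was measured within each library as the log2 CPM of ISG15 minus that of the other gene, with a pseudocount of 0.5 CPM. Against UBA7 this value went from −1.36 ± 0.278 in WT to 2.94 ± 0.374 in KD (SD, n = 3 each), a shift of 4.30. Against UBE2L6 it went from −1.91 ± 0.200 to 1.35 ± 0.302, a shift of 3.26. These values are not divided by length, so their sign does not rank the genes. Per kilobase, ISG15 was below UBE2L6 in each WT library and above it in each KD library. Against HERC5 the value went from 0.892 ± 1.01 to 4.22 ± 0.196 and against HERC6 from 2.82 ± 1.06 to 5.74 ± 0.409. WT replicate 1 was the lowest library for both, at −0.235 for HERC5 and 1.66 for HERC6. The smallest shift was that against USP18, from 1.81 ± 0.166 to 3.22 ± 0.175, a shift of 1.41. Against USP41 it went from 5.30 ± 0.940 to 8.78 ± 0.997, a shift of 3.47 that depends on the pseudocount, since USP41 was at 0 in 2 WT libraries. That shift was 1.86 with a pseudocount of 0.1 CPM and 4.08 with 1 CPM. In all 6 comparisons every KD library lay above every WT library. The exact two-sided permutation p was 0.1 each and 0.1 after adjustment over the 6, the smallest that 3 against 3 libraries allow. All 6 contain ISG15, which itself rose 52.3-fold, so they are not independent and do not count as separate support. How many other genes would give the same order against ISG15 was not computed. The comparison with USP41 is not counted as support.

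**Figure D3:**
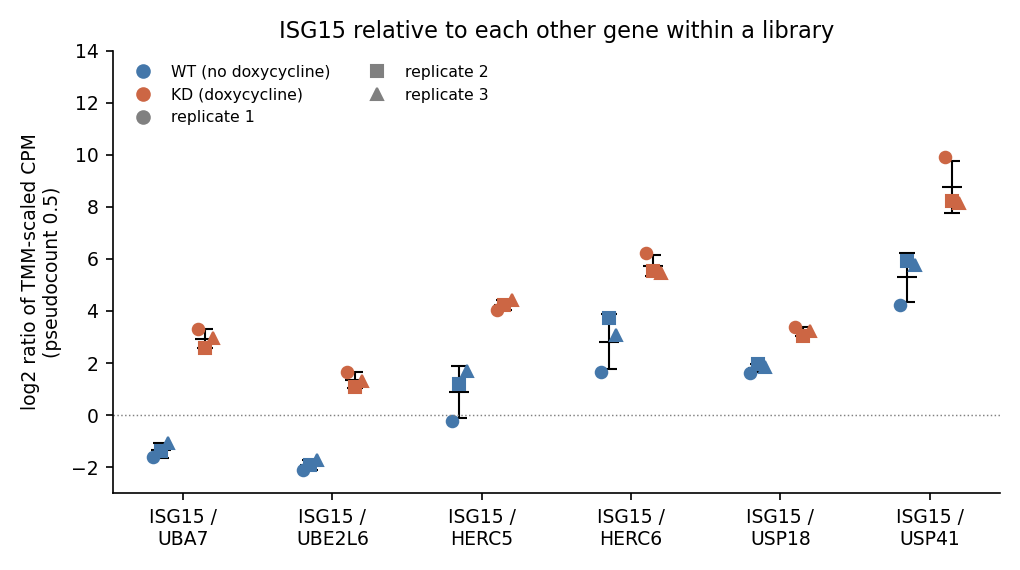
Log2 CPM of ISG15 minus log2 CPM of each other gene (pseudocount 0.5 CPM) in each WT and KD library, with lines at the means. Values are higher in all KD libraries for each gene, and the means are closest for USP18 (1.81 and 3.22).

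Genes that share functions with the cascade were examined in 11 lists that together held 88 genes, of which 87 were tested. Of these, 8 were called higher, 0 were called lower and 79 did not pass the test, and 14 had an unadjusted p under 0.05. Over all tested genes 1.75% were called higher and 2.59% in either direction. With the replicate block 8 were called higher and 2 lower, against 5.1% called higher over all tested genes in that fit. The median log2 fold change of the 87 genes was 0.10, compared with −0.03 over all tested genes. The 8 genes called higher lay in 4 of the 11 lists, with STAT2 in 2 of them.

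The close relatives of the conjugating enzymes mostly did not pass the test. Over all tested genes 2.59% were called in either direction, so 0 calls in lists this short is not read as particular to them. Among 8 other E1-type enzymes, 0 were called (1 with an unadjusted p under 0.05, 0 by DESeq2 and 0 by limma-voom, median log2 fold change 0.08), and UBA1, the E1 of ubiquitin, averaged 651 ± 180 CPM in WT against 645 ± 128 CPM in KD (adjusted p = 0.991). Among 10 other E2 enzymes, 0 were called (1 with an unadjusted p under 0.05, 0 by DESeq2 and 0 by limma-voom, median 0.22), and UBE2L3, the nearest relative of UBE2L6, averaged 109 ± 28.6 CPM without and 126 ± 16.1 CPM with knockdown (adjusted p = 0.787). Among 4 other HERC genes, 0 were called (0 with an unadjusted p under 0.05, 0 by DESeq2 and 0 by limma-voom, median 0.03). HERC3, 86271 bases from HERC5, averaged 27.0 ± 12.8 CPM in WT against 26.7 ± 15.3 CPM in KD (adjusted p = 0.992). Of 4 other ligases and E2 enzymes linked to ISG15, TRIM25, a ligase that also acts on the RNA sensor RIG-I, was called higher. It was measured at 121, 129 and 111 CPM in WT and at 170, 340 and 318 CPM in KD, a log2 fold change of 1.20 (SE 0.265, adjusted p = 0.0486, edgeR). The call was lost in 5 of the 6 fits that left out 1 library (adjusted p up to 0.239). For TRIM25 the adjusted p was 0.0061 with the replicate block (edgeR), 0.000648 with DESeq2 and 0.0437 with limma-voom.

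Other proteases and modifiers gave a similar picture, to be read against the same 2.59% called over all tested genes. Of 7 deconjugases with reported activity on ISG15, 0 were called (1 with an unadjusted p under 0.05, 1 by DESeq2 and 0 by limma-voom, median −0.24). USP13 was the one with the low p, with 37.8 ± 5.63 CPM in WT against 17.6 ± 4.56 CPM in KD (log2 fold change −1.10, adjusted p = 0.0658, and 0.0183 with the replicate block). Of 19 further USP proteases, 0 were called (1 with an unadjusted p under 0.05, 0 by DESeq2 and 0 by limma-voom, median 0.12). Of 14 genes of ubiquitin and other small modifiers, 13 were tested and 0 were called (1 with an unadjusted p under 0.05, 1 by DESeq2 and 0 by limma-voom, median −0.17). UBL5 was that gene, with 221 ± 30.3 CPM in WT against 147 ± 5.43 CPM in KD (log2 fold change −0.59, adjusted p = 0.158, and 0.0375 with the replicate block). USP13 and UBL5 were chosen for mention after their values were seen. The interferon-inducible modifier UBD (also called FAT10) was the gene not tested, at 0 in all WT libraries and at 0.436, 0 and 0 CPM in KD.

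The ISGF3 genes STAT2 and IRF9 were both called higher. STAT2, which also tethers USP18 to the interferon receptor, went from 91.7 ± 22.3 to 352 ± 29.4 CPM (log2 fold change 1.94, adjusted p = 0.00184). IRF9, the DNA-binding subunit, was measured at 19.0, 21.5 and 19.9 CPM in WT and at 130, 123 and 128 CPM in KD (log2 fold change 2.66, adjusted p = 6.49e-05). The KD libraries of IRF9 lay within a narrow range, unlike those of ISG15. Among 6 partners of USP18, STAT2 was the one called (median −0.03).

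Of 14 proteins known to be modified by ISG15, 5 were called higher and 0 lower (6 with an unadjusted p under 0.05, median 0.25), and most of those called are interferon-induced genes in their own right. Over all tested genes 1.75% were called higher. CHMP5, 1 of the 5, had an adjusted p of 0.046 (edgeR). Its call was lost in 5 of the 6 fits that left out 1 library (adjusted p up to 0.196), and it is named for that reason. For CHMP5 the adjusted p was 0.0067 with the replicate block (edgeR), 0.003 with DESeq2 and 0.0418 with limma-voom. The largest changes were those of IFIT1, which binds viral RNA (2.10 ± 0.721 to 92.0 ± 32.9 CPM, adjusted p = 7.62e-05), DDX58, which encodes RIG-I (3.26 ± 1.21 to 63.8 ± 17.8 CPM, adjusted p = 0.000236), and MX1, an antiviral GTPase (2.59 ± 0.0908 to 27.4 ± 2.84 CPM, adjusted p = 0.000206). Free ISG15 can act outside cells on the integrin LFA-1, and of its 2 chains, encoded by ITGAL and ITGB2, 0 were called (0 with an unadjusted p under 0.05, 0 by DESeq2 and 0 by limma-voom). Both were below 1 CPM on average in each condition.

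**Figure D4:**
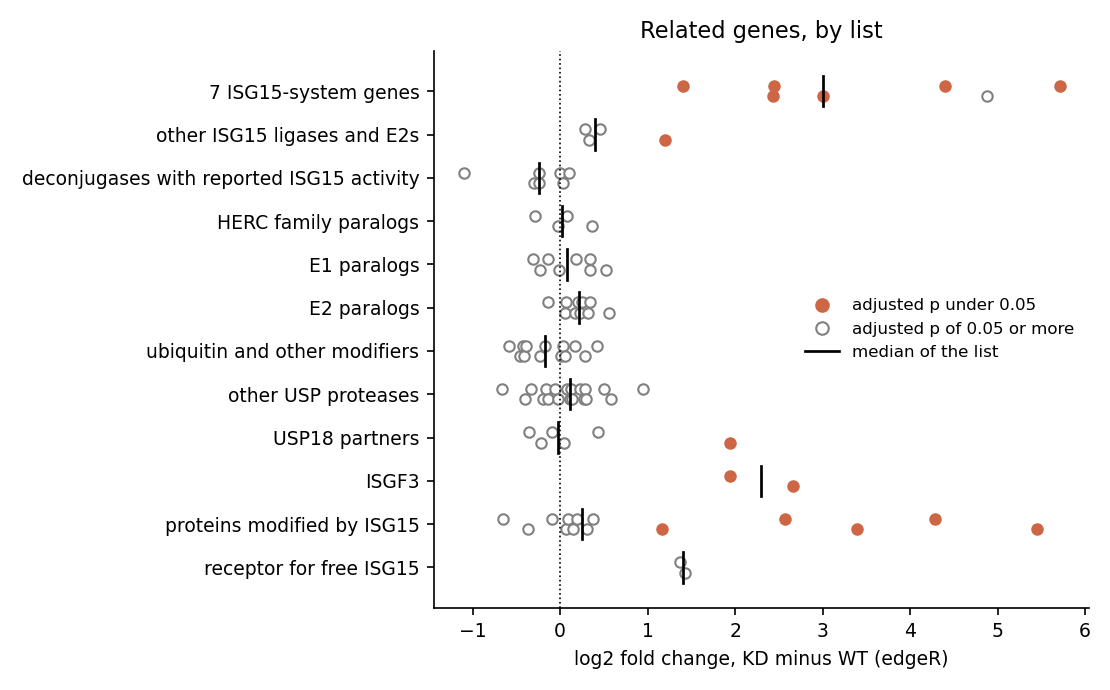
Log2 fold change, KD minus WT (edgeR), of the 7 genes and of each tested gene in the 11 lists, one point per gene, filled where the adjusted p is under 0.05, with a line at each list's median. Outside the 7 genes, filled points stand for TRIM25, for STAT2 and IRF9, and for 5 of the proteins modified by ISG15, and the medians for relatives of the E1, E2, HERC and USP enzymes lie between −0.24 and 0.22.

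The genes whose pattern over the 6 libraries was most like those of ISG15 and USP18 were listed by Pearson's r of log2(CPM + 0.5), among 13528 genes with a mean of at least 1 CPM. These values describe 6 libraries in 2 conditions, so that any gene with tight and well separated groups gives a high r. For ISG15 they were C10orf35 (r = 0.9995), the membrane-associated antiviral gene IFITM1 (0.9992), the transcription factor IRF7 (0.9983), TMEM62 (0.9973) and PARP10 (0.9970). For USP18 they were C10orf35 (0.9994), IRF7 (0.9994), IFITM1 (0.9984), the peptide transporter TAP1 (0.9984) and the linker histone gene H1F0 (0.9980). IFITM1 went from 5.16 to 222 CPM and IRF7 from 18.0 to 197 CPM (log2 fold changes 5.42 and 3.44). C10orf35 went only from 4.66 to 9.42 CPM and did not pass the test (log2 fold change 1.01, adjusted p = 0.169). Among the 7 genes themselves r was highest between ISG15 and USP18 (0.999) and lowest between HERC5 and USP41 (0.843).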

How the data were processed

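Poly(A) RNA of 3 WT and 3 KD M14 libraries was sequenced with a directional kit. The authors aligned reads to hg19 with STAR and estimated gene expression with RSEM, and deposited a table of expected counts per gene for all libraries. Their annotation and strand setting are not given in the sources used here, so that overlapping genes on opposite strands may share reads. Expected counts were rounded to whole numbers and genes were kept by filterByExpr. Counts were scaled by TMM and tested with edgeR 4.0.16 (quasi-likelihood, R 4.3.3), with Benjamini-Hochberg adjustment over 15605 genes and a threshold of 0.05 on the adjusted p. Levels are TMM-scaled CPM. The script was tested on simulated data. Alternatives were DESeq2 1.42.0, limma-voom (limma 3.58.1), upper-quartile scaling, other count filters, unrounded counts, the replicate block, USP18 and USP41 summed, and leaving out each library.

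Replicate numbers come from the sample titles. Deviations from the group means of same-numbered WT and KD libraries correlated at 0.524, 0.365 and 0.301 over 10569 genes with a mean of at least 5 CPM (mean of the other pairs −0.182). Centring within each group pushes the other pairs below 0 when same-numbered pairs are above it, so that contrast carries little weight. The main fit and the permutation tests did not use the pairs. Pairs entered only the fit with the replicate block and the differences by replicate number.

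Positions and lengths are from GENCODE on GRCh37, in which 55538 of the 57820 gene IDs (96.1%) were found. The genes and lists were chosen with earlier results of these data known. Named were the 7 genes, STAG2, up to 3 called genes per list with the largest change, a fixed set of relatives, called or overlapping neighbours within 100 kb, and the 5 genes most like ISG15 and USP18. PECAM1 was not analysed here, and 1 gene of the lists is not reported here.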

Additional observations from a re-analysis of the deposited data

How the results depend on the processing

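ISG15, UBE2L6, HERC5, HERC6 and USP18 kept their direction and their call under every alternative run, with adjusted p up to 0.0411 (HERC6 with 1 library left out). The log2 fold change of UBA7 ranged from 1.21 to 1.64 with 1 library left out, and its call was lost in 3 of those 6 fits. USP41 passed the test with DESeq2 (4.95), with no filter on low counts (4.85) and without WT replicate 1, its log2 fold change ranged from 4.24 to 9.36 with 1 library left out, and it was not tested when at least 10 counts were required in every library. With the replicate block the log2 fold changes were 5.75 for ISG15, 1.43 for UBA7 and 4.42 for USP18, and of the 7 genes the block changed no call. Counts over all genes moved more. Against 273 higher, 131 lower and 404 in all, the block gave 796, 690 and 1486, DESeq2 550, 438 and 988, and testing with no filter 573, 530 and 1103. With 1 library left out they ranged from 106 to 340, 15 to 191 and 121 to 531, with the fewest without KD replicate 3 and the most without WT replicate 1, and the cause was not tested. No fold change of the 7 genes and no difference between ISG15 and another of them changed sign under the alternatives run. With 3 libraries per condition no single-gene permutation p can fall below 0.1, and USP41 levels in WT are at or near the limit set by depth.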

Other observations

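Of 40 other tested genes within 100 kb of the 7 genes, 1 was called higher and 0 lower, with a median log2 fold change of 0.03, against 1.75% called higher over all tested genes. The median was 1.04 for the 12 tested neighbours of ISG15. For neighbours of the other genes the medians ranged from −0.56 (USP18) to 0.37 (UBE2L6). The called gene was HES4, a HES-family transcription factor gene on the strand opposite to ISG15 and 966 bases from its annotated span. That span begins at position 936518, well upstream of the ISG15 start at 948877 used for the promoter, and HES4 ends at 935552. HES4 averaged 4.47 CPM in WT against 18.5 CPM in KD (log2 fold change 2.05, SE 0.368, adjusted p = 0.0204, edgeR). That call was lost in 5 of the 6 fits that left out 1 library, all but the one without WT replicate 1 (adjusted p up to 0.107). With the replicate block 4 neighbours were called higher, 3 of them near ISG15, against 5.1% over all tested genes, and neither count is read as particular to these surroundings. These were HES4 (adjusted p = 0.00126), AGRN (606 to 1538 CPM, adjusted p = 0.000802), which encodes the matrix protein agrin, and PLEKHN1 (8.38 to 18.5 CPM, adjusted p = 0.0244), together with IP6K1 near UBA7 (112 to 180 CPM, adjusted p = 0.0241). Genes annotated as overlapping a member, RP11-54O7.10 and RP11-54O7.11 at ISG15, MIR5193 at UBA7 and AC083829.1 at HERC5, had a mean of at most 1 count and were not tested.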
